A study of Chelonus formosanus with 6 samples.

Results

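The oxidative phosphorylation genes of the parasitoid wasp Chelonus formosanus were followed in RNA of female and male heads. They were taken from the authors' annotation of an assembled transcriptome: unigenes placed in KEGG's oxidative phosphorylation pathway, or described as NADH dehydrogenase [ubiquinone], cytochrome c oxidase subunit, cytochrome b-c1 or ATP synthase, kept where the best protein hit came from an insect. A unigene is a cluster of assembled transcripts that stands for a gene. The search matched 368 of 41986 unigenes, and 113 of them had an insect hit, 9 coded by the mitochondrial genome and 104 by the nuclear genome. The other 255 named no insect and are given only in the closing part.

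The study compared heads of females with heads of males, all given as day 1 in the labels, with no treatment and no strain named, in 3 poly(A) libraries per sex. Total counts per library ran from 17937390 to 19517887. The labels do not say whether a library was 1 animal or a pool, so p-values measure the spread between these libraries, which may be technical. The stated aim was to pick reference genes for quantitative PCR.

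Oxidative phosphorylation is the last stage of respiration, in the inner membrane of mitochondria. Complexes I and II take electrons from NADH and succinate and hand them to ubiquinone, complex III passes them to cytochrome c and complex IV to oxygen, while complexes I, III and IV pump protons out of the matrix; complex V, the ATP synthase, lets the protons back and makes ATP. Most subunits are nuclear genes whose products are imported, and a few core subunits of complexes I, III, IV and V are read from the mitochondrial genome itself. Nerve, photoreceptor and muscle cells, all present in an insect head, are known for high rates of respiration.

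The set covered all 5 complexes: 37 unigenes of complex I, 9 of complex II, 10 of complex III, 11 of complex IV and 16 of complex V. It further held 16 unigenes of the V-type proton pump, 8 assembly factors and 6 others, which the same search took in. Of the 113 unigenes 51 met both parts of the search, 52 only the pathway part and 10 only the description part. The braconid wasp Microplitis demolitor gave the best hit for 63, and 30 species were named in all. Of the 83 unigenes of complexes I to V, 69 carried a gene ontology term for the mitochondrion. The unigenes had a median length of 897 bases, against 2053 bases over all tested unigenes with an insect hit. The assembler placed 17 of them in 6 shared clusters, so their counts are less certain. In these, 6 unigenes of succinate dehydrogenase subunit A and a unigene described as myb-like protein A shared a cluster, as did ATP synthase beta and NDUFC2.

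Female and male heads differed little in these genes. Of the 113 unigenes 110 passed the filter on low counts, and 2 passed the test, both higher in females (edgeR's quasi-likelihood test, Benjamini-Hochberg adjusted p under 0.05): an inorganic pyrophosphatase and the unigene described as myb-like protein A. Over all 21196 tested unigenes 1.69% were higher in females and 1.11% lower in females by the same test. None of the 80 tested subunits of complexes I to V passed it (smallest adjusted p = 0.0635, ATP synthase beta). At an unadjusted p under 0.05, 17 of those 80 subunits were lower in females and 0 higher, beside 5.71% lower and 6.29% higher over all tested unigenes. DESeq2's Wald test called 5 subunits lower in females (ND5, cytochrome b, and ATP synthase beta, c and gamma) and the same pyrophosphatase and myb-like unigenes higher, against 1.84% lower and 2.19% higher over all unigenes to which it gave an adjusted p. The number of calls thus differed between the tools.

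The small differences mostly had the same sign. The log2 difference, female minus male, was below 0 in 76 of the 110 tested unigenes (69.1%), against 50.0% of all tested unigenes and 58.0% of those with an insect hit and a mean of at least 50 CPM (the count divided by library total and TMM factor and scaled to a common size), a range that held 88 of the oxidative phosphorylation unigenes. Its median was -0.08, against -0.00 over all tested and -0.02 over the abundant insect-hit ones. The female and male libraries did not overlap in 30 unigenes that were lower in females and in 6 that were higher, where all tested unigenes gave 8.50% lower and 8.77% higher. Among the 88 abundant ones 28 were lower in females with no overlap, beside 16.0% of all abundant insect-hit unigenes. In RNA of heads, fewer cells of a type and less RNA per cell cannot be told apart.

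**Figure D1:**
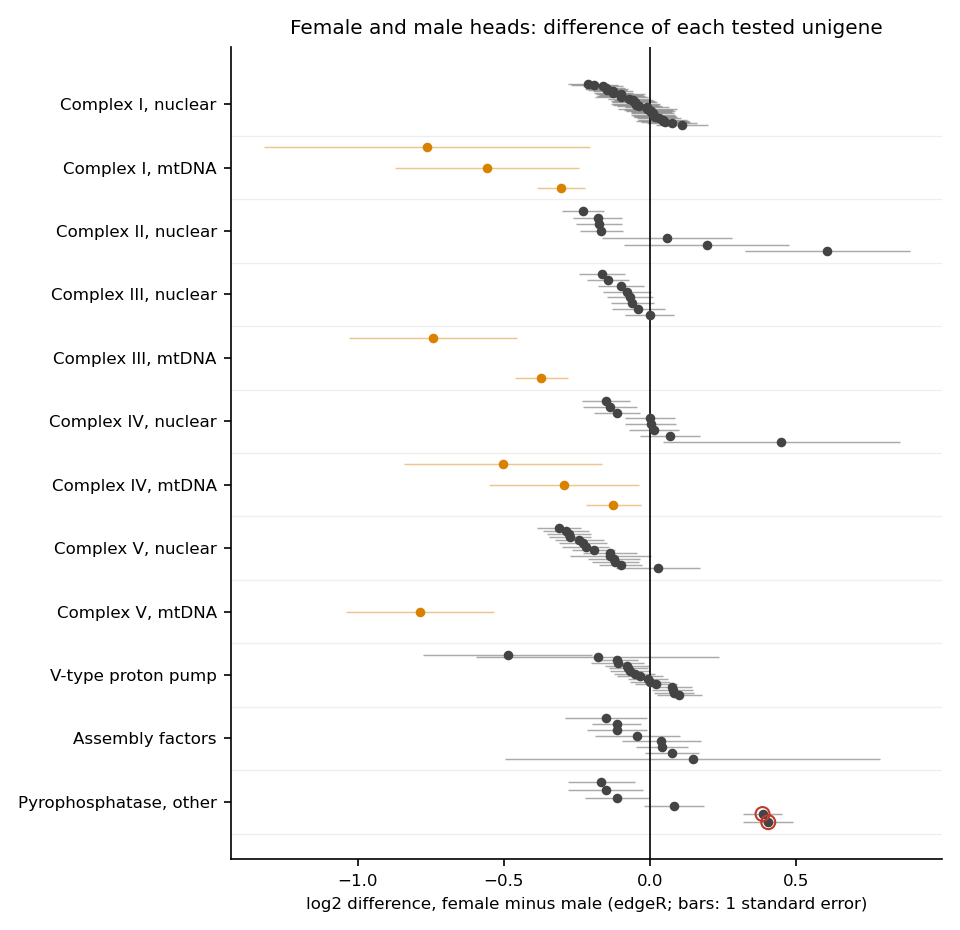
Log2 difference, female minus male, of each of the 110 tested unigenes (x axis), by complex and coding genome; dots are unigenes, bars 1 standard error from edgeR, orange marks the mitochondrial genome and red rings an adjusted p under 0.05. The 2 ringed unigenes lie to the right among the others, all 9 mitochondrial ones lie below 0, and the nuclear complex V unigenes reach from -0.31 to 0.03.

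Per length, these transcripts were among the most abundant of the head. In TPM, the authors' values per transcript length, 86 of the 113 stood at or above the 90th percentile of the tested unigenes with an insect hit, and together they held 5.73% to 6.28% of all TPM in a library. Cytochrome c oxidase subunit 1 was the highest with a mean of 6131 TPM, followed by COX2 with 4249 TPM, the longer cytochrome b unigene with 2793 TPM and the nuclear COX6C with 2437 TPM. The median level of nuclear subunits ran in the order complex IV (1102 TPM), complex III (775 TPM), complex V (619 TPM) and complex I (289 TPM), but their ranges overlapped. Complex II was left out of this order because 5 of its 9 unigenes are minor ones of succinate dehydrogenase A, which put its median at 2.26 TPM. Its main subunits lay between 83.8 and 300.1 TPM. V-type pump subunits had a median of 205 TPM and assembly factors one of 18.1 TPM. Of the nuclear subunits of complexes I to V, 7 lay under 5 TPM: 5 minor unigenes of succinate dehydrogenase A, a minor COX6B unigene and an ATP synthase unigene of no stated subunit.

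**Figure D2:**
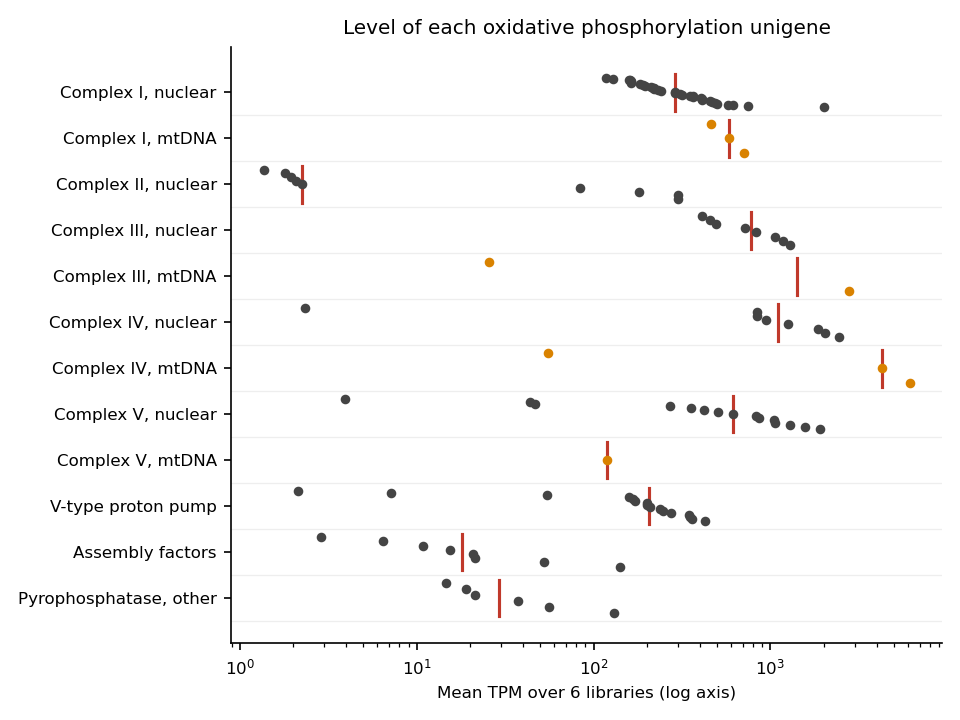
Mean TPM over the 6 libraries (x axis, log scale) of each of the 113 unigenes, by complex and coding genome; dots are unigenes, red lines group medians and orange the mitochondrial genome. The dots span 1.37 to 6131 TPM, with mitochondrial COX1 at the top and assembly factors mostly at the low end.

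The pyrophosphatase (TRINITY_DN26363_c3_g8), an enzyme that splits pyrophosphate into phosphate and so pulls biosynthetic reactions forward, was at 137, 139.8 and 141 CPM in females 1 to 3 and 106, 105 and 109 CPM in males 1 to 3. Each female library lay above each male library, and the spread within a sex was small (139 ± 2.13 CPM over the female and 107 ± 2.10 CPM over the male libraries, mean ± SD, n = 3 each). The difference passed edgeR's test (log2 difference 0.39, SE 0.07, adjusted p = 0.00924), though not without female 2 or without male 2 (adjusted p = 0.0585 and 0.071). The unigene described as myb-like protein A (TRINITY_DN25535_c1_g1), which KEGG's orthologue label calls succinate dehydrogenase A, was at 175, 187 and 164 CPM in females 1 to 3 and 125, 127 and 145 CPM in males 1 to 3. Again no female library overlapped a male one (edgeR, log2 difference 0.41, SE 0.08, adjusted p = 0.0296). Its adjusted p rose to 0.161 without female 2, 0.134 without male 1 and 0.182 without male 2.

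That unigene shares an assembly cluster with the 6 unigenes of succinate dehydrogenase A, the flavoprotein that oxidises succinate. The main one of these (TRINITY_DN25535_c1_g4) was at 230.2, 210.4 and 197 CPM in females 1 to 3 and 235, 239 and 246 CPM in males 1 to 3, so here the females were the lower sex, with no overlap (edgeR, log2 difference -0.17, SE 0.08, adjusted p = 0.418). Summed over the 7 unigenes of the cluster, the level was 413, 407 and 370.2 CPM in females 1 to 3 and 367, 374 and 398 CPM in males 1 to 3, and the sexes overlapped. Whether reads of a shared stretch were divided among these unigenes was not tested.

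The 9 unigenes of the mitochondrial genome were ND1, ND4 and ND5 of complex I, a long and a short cytochrome b unigene of complex III, COX1, COX2 and COX3 of complex IV and ATP6 of complex V. All 9 had a log2 difference below 0 (median -0.50), and none passed edgeR's test (smallest adjusted p = 0.0707). The unadjusted p was under 0.05 in 4, and DESeq2 called 2. Over all tested unigenes 5.71% were lower in females at that unadjusted p, and DESeq2 called 1.84% lower. ND5, a proton-pumping core subunit, was at 171, 184 and 189 CPM in females 1 to 3 and 241, 223 and 207 CPM in males 1 to 3 (edgeR, log2 difference -0.30, SE 0.08, adjusted p = 0.0937; DESeq2 adjusted p = 0.0277). The longer cytochrome b unigene, for the subunit that oxidises ubiquinol, was at 481, 524 and 436 CPM in females 1 to 3 and 667, 621 and 576 CPM in males 1 to 3 (edgeR, log2 difference -0.37, SE 0.09, adjusted p = 0.0707; DESeq2 adjusted p = 0.00336). In both the 3 female libraries lay below the 3 male ones. COX1, the catalytic subunit that reduces oxygen, was at 6311, 7106 and 6237 CPM in females 1 to 3 and 7263, 6708 and 7468 CPM in males 1 to 3, and the sexes overlapped (log2 difference -0.13, SE 0.09).

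Female 1 stood apart in several of them. ND1 was at 28.7, 247 and 259 CPM in females 1 to 3 and 302, 243 and 364 CPM in males 1 to 3, so female 1 held 11.3% of the mean of females 2 and 3. COX2, which takes electrons from cytochrome c, was at 381, 1257 and 1257 CPM in females 1 to 3 and 1331, 1309.6 and 1463 CPM in males 1 to 3, and ND4 at 65.1, 205 and 189 CPM in females 1 to 3 and 226, 213 and 238 CPM in males 1 to 3. In these unigenes female 1 was at 30.3% and 33.03% of the other females, while females 2 and 3 lay just below the lowest male. The same library was also the lowest female for COX3 (14.9, 36.1 and 26.2 CPM in females 1 to 3 and 28.4, 27.7 and 38.6 CPM in males 1 to 3) and ATP6 (8.62, 17.8 and 15.4 CPM in females 1 to 3 and 17.02, 27.7 and 27.5 CPM in males 1 to 3). In COX1, ND5 and the longer cytochrome b unigene, by contrast, female 1 was at 94.6%, 91.6% and 100.3% of the other females.

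For female 1, the only library checked in this way, such low values were rare. Of 3291 abundant insect-hit unigenes, 7 (0.213%) had female 1 under 50% of the mean of females 2 and 3, and ND1, COX2 and ND4 were 3 of them. The other 4 are uncharacterized or hypothetical proteins. Without female 1 the log2 difference of ND1 moved from -0.76 to -0.25, that of COX2 from -0.50 to -0.12, that of ND4 from -0.56 to -0.19 and the median of the 9 from -0.50 to -0.25. The cytochrome b and ND5 values, at -0.37 and -0.26 without female 1, moved little. ATP6, a proton channel subunit, had the largest difference of the 9 (log2 difference -0.79, SE 0.25, adjusted p = 0.189 by edgeR) at a low level. The short cytochrome b unigene, at 2.04 to 5.69 CPM over the 6 libraries, had one of -0.74 (SE 0.29). With female 1 left out, ATP6 was at -0.54 and the short cytochrome b unigene at -0.57. COX3 went from -0.29 to -0.02 and COX1 from -0.13 to -0.10. The 9 unigenes of the mitochondrial genome in this set made up 19.0% of the summed TPM of the 113 unigenes in female 1. In the other libraries they made up 25.8% to 28.01%.

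**Figure D3:**
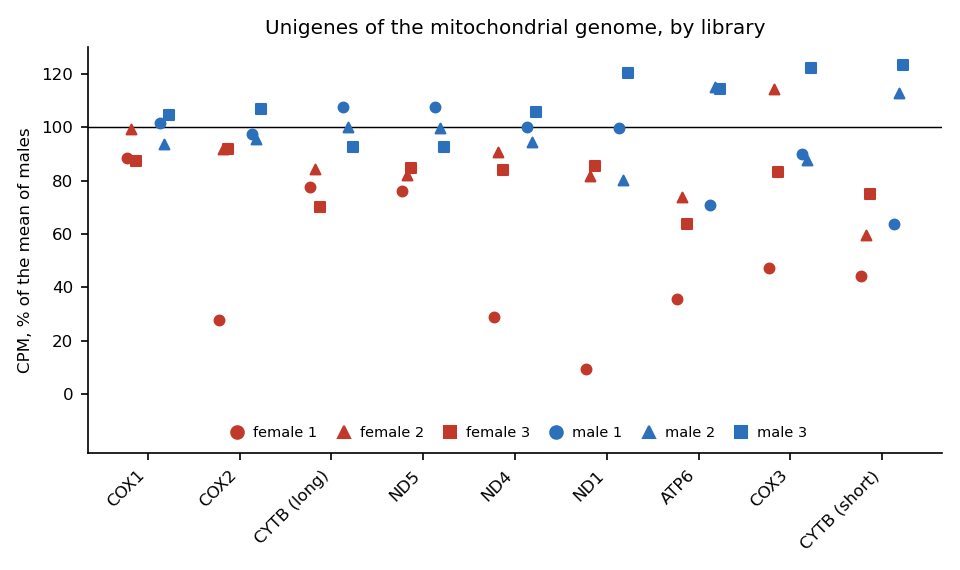
Level of the 9 unigenes of the mitochondrial genome in each library, as CPM in percent of the mean of males (y axis), ordered from the highest TPM on the left; symbols are libraries, red female and blue male. Female 1 (red circles) lies far below females 2 and 3 in COX2, ND4 and ND1, at 30.3%, 33.0% and 11.3% of their mean, and close to them in COX1 and ND5.

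The 34 nuclear unigenes of complex I, the NADH dehydrogenase, differed little between the sexes, with a median log2 difference of -0.05 and a range of -0.21 to 0.11. The difference was below 0 in 22 of them and above 0 in 12. None passed edgeR's test, 4 were lower in females at an unadjusted p under 0.05 with none higher, and DESeq2 called none. Over all tested unigenes 5.71% were lower and 6.29% higher at that unadjusted p. With no overlap between the sexes, 8 of the 34 were lower in females and 0 higher. That compares with 8.50% lower and 8.77% higher over all tested unigenes, and 16.0% lower over the abundant insect-hit ones. NDUFB11, an accessory subunit of the membrane arm, had the smallest p at 70.1, 68.2 and 69.7 CPM in females 1 to 3 and 77.8, 80.2 and 83.00 CPM in males 1 to 3. The sexes did not overlap, but the difference missed the threshold (edgeR, log2 difference -0.21, SE 0.07, adjusted p = 0.192). On the other side, NDUFC2 was at 107, 96.1 and 95.8 CPM in females 1 to 3 and 83.1, 94.1 and 100.2 CPM in males 1 to 3, and the sexes overlapped (log2 difference 0.11, SE 0.09). The highest level per length in this group was that of NDUFA4 (1997 TPM), which KEGG counts in complex I and which in mammals was later found with complex IV. Next came NDUFA7, an accessory subunit (746 TPM). NDUFA4 stood at 623, 606 and 529 CPM in females 1 to 3 and 540.3, 548 and 617 CPM in males 1 to 3, and NDUFA7 at 168, 156 and 146 CPM in females 1 to 3 and 155, 161 and 187 CPM in males 1 to 3, both with overlapping sexes.

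Of the subunits that carry the redox centres of complex I, those named here had log2 differences of -0.10 to 0.05 (chosen after their values were seen). NDUFV1, which binds NADH and the flavin, had a log2 difference of 0.05 (SE 0.08), and the iron-sulphur subunit NDUFS1 one of -0.07 (SE 0.07). NDUFV2 was at -0.10 (SE 0.08), NDUFS7 at -0.04 (SE 0.08) and NDUFS8 at 0.01 (SE 0.07). At the median standard error of 0.08 in this group, differences of the size of its median cannot be resolved gene by gene.

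Complex II, succinate dehydrogenase, feeds electrons from the citrate cycle and has no mitochondrially coded subunit. Its main unigenes of subunits A to D were all lower in females with no overlap, and none passed edgeR's test. Over the abundant insect-hit unigenes 16.0% were lower with no overlap. SDHC, a membrane anchor, had the smallest p at 146, 152 and 139 CPM in females 1 to 3 and 163, 175 and 174 CPM in males 1 to 3 (edgeR, log2 difference -0.23, SE 0.07, adjusted p = 0.169). SDHB, the iron-sulphur subunit, was at 278, 265 and 249 CPM in females 1 to 3 and 291, 289 and 309 CPM in males 1 to 3 (edgeR, log2 difference -0.17, SE 0.07, adjusted p = 0.417). SDHD, the other anchor, was at 82.4, 82.8 and 75.7 CPM in females 1 to 3 and 82.9, 90.6 and 99.1 CPM in males 1 to 3 (edgeR, log2 difference -0.18, SE 0.08, adjusted p = 0.449; named after its value was seen). In SDHD the gap between the closest libraries of the sexes was smaller than the spread within either sex. The 5 minor unigenes of SDHA held 1.36 to 2.26 TPM, and 2 of them failed the filter. The 3 tested ones had log2 differences of 0.06 (SE 0.22), 0.19 (SE 0.28) and 0.61 (SE 0.28). The last (TRINITY_DN25535_c1_g6), at 2.04, 2.22 and 1.45 CPM in females 1 to 3 and 1.36, 1.36 and 1.02 CPM in males 1 to 3, was higher in females with no overlap and had the largest positive difference of the 110 tested unigenes at a very low level (edgeR adjusted p = 0.434).

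Complex III, the cytochrome b-c1 complex, had 8 nuclear unigenes, all with a log2 difference at or below 0 (median -0.07) and none past the test (0 had an unadjusted p under 0.05, and DESeq2 called 0). UQCRC2, a core subunit, was lower in females with no overlap, at 497, 473 and 441 CPM in females 1 to 3 and 519.9, 509 and 553 CPM in males 1 to 3 (edgeR, log2 difference -0.17, SE 0.08, adjusted p = 0.456). UQCRB and UQCRQ, small subunits next to cytochrome b, had the highest levels per length, 1292 and 1181 TPM, and overlapping sexes (log2 differences -0.10 and -0.07).

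Complex IV, cytochrome c oxidase, showed little difference in its 8 nuclear unigenes: the median was 0.00, 3 were below 0 and 5 above, and the sexes overlapped in all 8. No unigene passed edgeR's test, had an unadjusted p under 0.05 or was called by DESeq2. COX4, a regulatory subunit, was at 557, 574 and 525 CPM in females 1 to 3 and 572, 602 and 663 CPM in males 1 to 3 (log2 difference -0.15, SE 0.08). COX6C and COX7C, small membrane subunits, were the highest nuclear-coded ones at 2437 and 2031 TPM. COX6C was at 434, 449.9 and 391 CPM in females 1 to 3 and 397, 416 and 460.1 CPM in males 1 to 3, and COX7C at 307, 362 and 316 CPM in females 1 to 3 and 291, 291 and 358 CPM in males 1 to 3. Female 3 was the lowest female in COX6C, and male 3 the highest male in both, and the sexes overlapped in each. The abundant COX6B unigene (TRINITY_DN26667_c1_g1) is described after its best hit as a splicing factor, while its Swiss-Prot and Pfam labels name COX6B.

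Complex V, the ATP synthase, consists of a catalytic head (alpha and beta subunits around the gamma stalk, with delta and epsilon) and a membrane ring of c subunits that turns as protons pass. Of its 14 tested nuclear unigenes 13 had a log2 difference below 0 (median -0.21) and 8 were lower in females with no overlap and an unadjusted p under 0.05, but none passed edgeR's adjusted threshold. Over all tested unigenes 8.50% were lower with no overlap and 5.71% lower at that unadjusted p. Among the abundant insect-hit unigenes the share lower with no overlap was 16.0%. ATP synthase beta (TRINITY_DN25577_c0_g3), which carries the catalytic sites, was at 1082, 1054 and 999 CPM in females 1 to 3 and 1278, 1305 and 1303 CPM in males 1 to 3. The 3 female libraries thus lay at 80.7% of the male mean with a gap between the sexes (1045 ± 42.6 CPM over the female and 1295 ± 15.2 CPM over the male libraries, mean ± SD, n = 3 each; edgeR, log2 difference -0.31, SE 0.08, adjusted p = 0.0635; DESeq2 adjusted p = 0.00315). Without each library in turn its log2 difference lay between -0.33 and -0.28.

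The other subunits of the head, and the c, d and OSCP subunits, are named after their values were seen. Gamma was at 298, 280.1 and 271 CPM in females 1 to 3 and 341, 343 and 343 CPM in males 1 to 3 (edgeR, log2 difference -0.27, SE 0.07, adjusted p = 0.0836; DESeq2 adjusted p = 0.0231). Alpha was at 1215, 1222 and 1094 CPM in females 1 to 3 and 1368, 1331 and 1475 CPM in males 1 to 3 (edgeR, log2 difference -0.24, SE 0.08, adjusted p = 0.236). Delta had a log2 difference of -0.28 (adjusted p = 0.101) and epsilon one of -0.19 (adjusted p = 0.308) in the edgeR fit. In all 5 subunits of the head each female library lay below each male one, with a median log2 difference of -0.27. Subunit c, of the ring, was at 1092, 1106 and 997 CPM in females 1 to 3 and 1255, 1319 and 1324 CPM in males 1 to 3 (edgeR, log2 difference -0.29, SE 0.08, adjusted p = 0.107; DESeq2 adjusted p = 0.0165). The stalk subunits d and OSCP, the latter joining head and stalk, had log2 differences of -0.23 and -0.22 with no overlap (edgeR adjusted p = 0.25 and 0.272).

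The remaining subunits of the stalk and membrane gave smaller differences. Subunit f, the highest of the complex per length (1915 TPM), was at 429, 439.7 and 396 CPM in females 1 to 3 and 423, 467 and 481 CPM in males 1 to 3, and coupling factor 6 (1575 TPM) at 297, 284 and 281 CPM in females 1 to 3 and 288, 302 and 358 CPM in males 1 to 3. The sexes overlapped in both (log2 differences -0.12 and -0.14). Subunits e and g had log2 differences of -0.10 and -0.13, also with overlap. A unigene named ATP synthase subunit s, taken in by its description and not by KEGG, was the only one above 0 (log2 difference 0.03, SE 0.14). Another, named subunit s-like and taken in the same way, was at -0.12 (SE 0.09). They stood at 46.7 and 43.6 TPM, and whether they are parts of the enzyme was not tested. Over the 9 tested unigenes outside the head the median was -0.13, and whether the head differs from the rest of the complex was not tested.

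**Figure D4:**
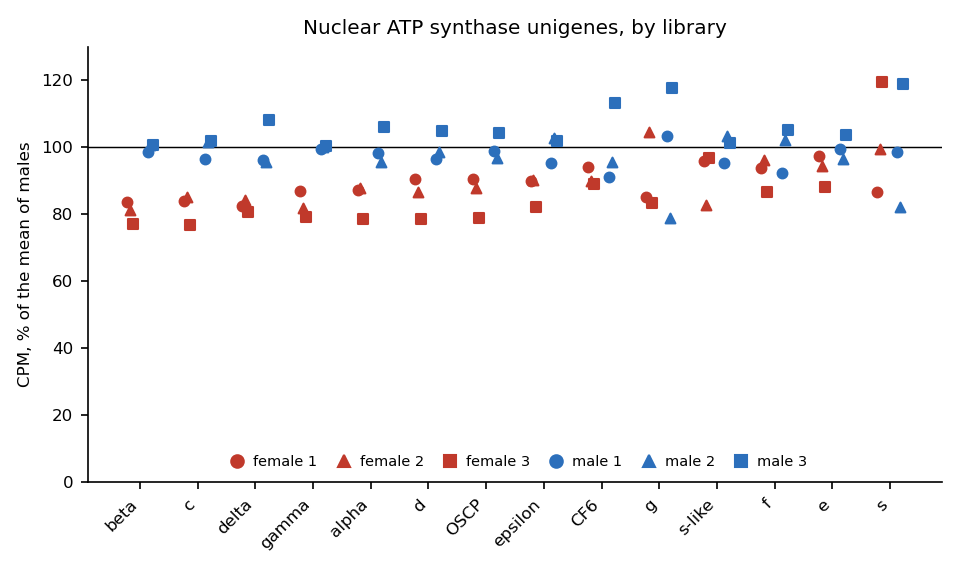
Level of the 14 tested nuclear ATP synthase unigenes in each library, as CPM in percent of the mean of males (y axis), ordered by log2 difference from the most negative; symbols are libraries, red female and blue male. From beta to epsilon the red symbols all lie below the blue ones, and from coupling factor 6 on the colours mix.

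Summed over the nuclear unigenes, complex V was at 6316, 6288 and 5778 summed CPM in females 1 to 3 and 7022, 7095 and 7521 in males 1 to 3, a mean of 84.96% in females relative to males with no overlap. Complex I was at 6733, 6586 and 6272 summed CPM in females 1 to 3 and 6370.3, 6551 and 7052 in males 1 to 3 (98.1%), and complex IV at 3353, 3435 and 3052 summed CPM in females 1 to 3 and 3205, 3306 and 3677 in males 1 to 3 (96.6%), both with overlapping sexes. For complexes I, III and IV the sign of the difference depended on the scale. Their summed TPM was higher in females (12647 against 12019 for complex I). The means of complexes II and V and of the mitochondrial genome were lower in females on both scales. In summed TPM, complex V was at a mean of 10486 in females against 11169.8 in males and complex II at 848 against 899.7. The mitochondrial genome was at a mean of 13938 against 16324, with female 1 far below the other libraries. Its sum was 10853, 15868 and 15092 TPM in females 1 to 3 and 16873, 15594 and 16504 in males 1 to 3, and the sexes overlapped. In summed CPM complex II was at 744, 719 and 671 in females 1 to 3 and 779, 801 and 835 in males 1 to 3 (88.3%). The sexes did not overlap in that sum, but in summed TPM they did (878.9 in female 1, 874.97 in male 1). Both sums leave out the myb-like unigene, which KEGG labels succinate dehydrogenase A and which was higher in females. An undescribed unigene (TRINITY_DN22978_c0_g1) took 5.46% to 5.83% of all TPM in males and 0.819% to 0.985% in females, which lowers the TPM of all other unigenes in males. The ratio of summed TPM of complex V to complex I, which no scaling of a library changes, was 0.827, 0.837 and 0.823 in females 1 to 3 and 0.934, 0.928 and 0.926 in males 1 to 3. The sexes did not overlap in it, and the spread within a sex was below the gap; no test was made.

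Transcripts of muscle differed between the sexes in the same direction. The list of 62 contractile genes (myosins, troponins, tropomyosin and others, found by words in the description) stood at 38115, 30022 and 26451 summed CPM in females 1 to 3 and 45069, 41069 and 46187 in males 1 to 3. The sexes did not overlap, and 6 of the 49 tested genes were lower in females by edgeR's test with 0 higher (median log2 difference -0.15). Over all tested unigenes this test called 1.11% lower and 1.69% higher. Myosin regulatory light chain 2 was at 3052 ± 454 CPM (females) against 5622 ± 426 CPM (males; log2 difference -0.88, SE 0.12, adjusted p = 0.00194), and Tropomyosin-1, which covers the actin filament, at 600.2 ± 89.7 CPM (females) against 1078 ± 50.7 CPM (males; log2 difference -0.85, SE 0.11, adjusted p = 0.00152). Troponin C, the most abundant of the list per length, did not pass, at 2599.6 ± 244 CPM (females) against 2727 ± 362 CPM (males; log2 difference -0.07, SE 0.11, adjusted p = 0.897). Within females the muscle sum was highest in female 1 and lowest in female 3. Female 3 was also the lowest female for the nuclear sums of each of complexes I to V. Within males the muscle sum was highest in male 3 and lowest in male 2. The nuclear complex V sum was highest in male 3 and lowest in male 1. The part of muscle in the difference of complex V was not tested.

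**Figure D5:**
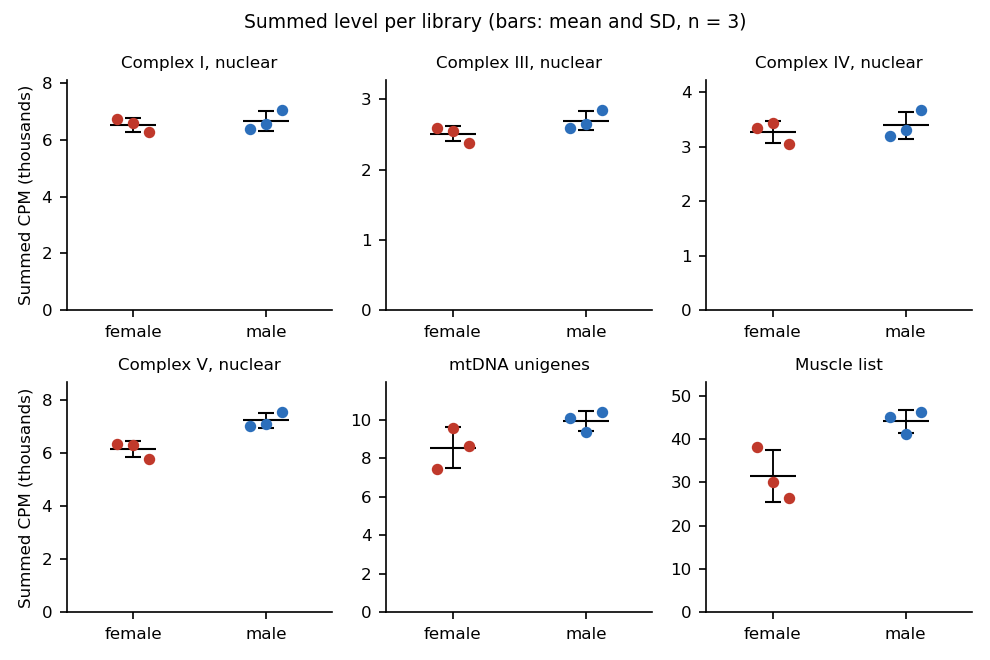
Summed CPM (y axis, from 0, in units of 1000) of the nuclear unigenes of complexes I, III, IV and V, of the mitochondrial genome and of the muscle list, by sex (x axis); dots are libraries, bars mean and SD (n = 3). In the complex V and muscle panels every female library lies below every male one, and in the other 4 panels the sexes overlap.

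The V-type pump, which acidifies vesicles and energises membranes with ATP and is no part of respiration, was nearly level, with a median log2 difference of -0.04 over 16 tested unigenes. None passed edgeR's test, had an unadjusted p under 0.05 or was called by DESeq2, and the spread within a sex was small (median coefficient of variation 2.85%). Subunit G, of the stalk, was at 465, 454 and 460.2 CPM in females 1 to 3 and 500.1, 479 and 513 CPM in males 1 to 3, with no overlap (edgeR, log2 difference -0.11, SE 0.07, adjusted p = 0.622). Subunit e, of the membrane part, was at 97.97, 109.6 and 107 CPM in females 1 to 3 and 92.7, 98.2 and 103 CPM in males 1 to 3, with overlap (log2 difference 0.10, SE 0.08). Subunit c, which forms the ring, had the highest level per length (426 TPM) and a log2 difference of -0.11 (SE 0.09). Without overlap, 3 of the 16 unigenes were lower and 3 higher in females, beside 8.50% lower and 8.77% higher over all tested unigenes. Over the abundant insect-hit unigenes 16.0% were lower without overlap.

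The 8 assembly factors in the set, which build the complexes but are not part of them, were low and level, at 2.87 to 140.3 TPM with a median log2 difference of -0.00. None passed edgeR's test or had an unadjusted p under 0.05, and DESeq2 called none. COX17, a copper chaperone of complex IV, was the highest at 140.3 TPM, and COX10 and COX15, which make its haem A, lay at 20.8 and 21.3 TPM. The remaining ones were COX11, which delivers copper, NDUFAF5 (2 unigenes) and NDUFAF7, enzymes that modify complex I subunits, and ATPAF2, a chaperone of the ATP synthase head. Besides the pyrophosphatase, 5 unigenes carried a description of another protein. The 4 of these other than myb-like protein A were named after DNTTIP2, HDHD2, SERAC1 and an uncharacterized protein, had log2 differences of -0.17 to 0.08, and did not pass the test.

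Other mitochondrial genes, from lists found by words and leaving out the 113, gave small values as well. Of 8 electron carriers and exchangers none was called by edgeR (3 had an unadjusted p under 0.05, and DESeq2 called 1; median log2 difference -0.14). Cytochrome c, which carries electrons from complex III to IV, was at 1069 ± 82.9 CPM (females) against 1374 ± 85.6 CPM (males; log2 difference -0.36, SE 0.09, adjusted p = 0.0669), with no overlap, and the carrier that exchanges ADP for ATP at 4786 ± 625 CPM (females) against 5311 ± 370.0 CPM (males; log2 difference -0.15, SE 0.11, adjusted p = 0.693), with overlap. None of the 18 tested assembly factors (1 at an unadjusted p under 0.05), 8 of coenzyme Q synthesis (0), 69 of the mitochondrial ribosome (1) or 15 of biogenesis and import (0) passed, and DESeq2 called none of these. Their medians lay between -0.05 and -0.01. Over all tested unigenes 5.71% were lower and 6.29% higher in females at an unadjusted p under 0.05.

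Of 16 genes that copy and read the mitochondrial genome 1 passed: dimethyladenosine transferase 2, mitochondrial, the factor TFB2M that in mammals opens mitochondrial promoters, at 51.7 ± 2.50 CPM (females) against 76.5 ± 5.53 CPM (males; log2 difference -0.57, SE 0.08, adjusted p = 0.00307), lower in females. Its adjusted p stayed at or below 0.0295 when any 1 library was left out. The median of these 16 was -0.08. Among marker lists of other head tissues, 3 of 24 tested neuronal genes, 1 of 11 eye genes and 37 of 102 odorant receptor genes were higher in females, with 0, 0 and 5 lower, and of 7 fat body genes 2 were higher and 1 lower. Beside these counts and the 1 of 16 above, edgeR called 1.69% of all tested unigenes higher and 1.11% lower in females. Arrestin and rhodopsin, the most abundant eye markers, did not pass (log2 differences -0.14 and -0.01), while the opsin of ultraviolet receptors was higher in females, at 554 ± 47.5 CPM (females) against 407 ± 25.5 CPM (males; log2 difference 0.44, SE 0.09, adjusted p = 0.0213). Of the neuronal genes a vesicular glutamate transporter, which loads transmitter into vesicles, was higher in females (log2 difference 1.41, adjusted p = 9.14e-06 by edgeR), as was a synaptotagmin-1-like calcium sensor (0.43, adjusted p = 0.00754), and of the antennal ones the odorant receptor coreceptor (1.23, adjusted p = 1.06e-05). The median log2 difference was 0.00 for neurons, -0.03 for the eye, 0.56 for the antenna and 0.59 for fat body. Summed CPM in females was 104% of that in males for neurons, 94.8% for the eye, 214% for the antenna and 83.9% for fat body, where sum and median thus differ in sign. Most of the fat body sum came from apolipophorins, lipid carriers of the blood, at 3737 ± 358 CPM (females) against 5076 ± 367 CPM (males; log2 difference -0.44, SE 0.10, adjusted p = 0.0464), and from vitellogenin-1-like, a yolk protein, with a log2 difference of 0.02. With 1 library left out, the edgeR adjusted p of apolipophorins reached 0.232 and that of the ultraviolet opsin 0.13. In at least 1 library 7 of the 62 muscle genes, 3 of 28 neuronal, 0 of 12 eye, 10 of 137 antennal and 1 of 10 fat body genes were at 0.

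Within a sex the libraries also shared an order. Female 3 was the lowest of the females in 61.8% of the tested oxidative phosphorylation unigenes, against 36.5% of the abundant insect-hit ones, and male 3 the highest of the males in 69.1%, against 38.5%. The median coefficient of variation within a sex was 5.63%, near the 5.97% of the abundant insect-hit unigenes. Because the unigenes shift together within libraries, the number of them on the same side is not a count of independent observations. In the authors' deposited table none of the 113 unigenes was marked significant, and 3 had an FDR under 0.05: the pyrophosphatase, the myb-like unigene and ATP6, with log2 fold changes of 0.39, 0.41 and -0.78.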

How the data were processed

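Poly(A) RNA of heads was sequenced in 3 female and 3 male libraries, and per the labels' protocols reads were assembled without a genome by Trinity 2.4.0, each transcript cluster being represented by its longest member, the unigene. For counting, annotation and the authors' own test, no tool is given in the sources used here. Expected counts per unigene and library, per the file headers, were deposited unscaled; 8.81% to 9.50% of them per library were not whole, and they were rounded. TPM values per library were deposited by the authors and used for levels between genes. The authors' deposited log2 fold change, p-value and FDR were used only where named. All sample columns matched a sample (0 did not), and groups follow the sex in the labels.

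Counts of all unigenes were tested in edgeR 4.0.16 (with limma 3.58.1, R 4.3.3): filterByExpr (at least 10 counts, 15 in total), TMM scaling, quasi-likelihood test of female minus male, and Benjamini-Hochberg adjustment over the 21196 unigenes that passed, with a threshold of 0.05. The standard error was derived from the log2 difference and the F statistic. DESeq2 1.42.0 gave an adjusted p for 19936 unigenes, and those it left without one were not counted. The scripts were tested on simulated data. Python 3.11.15, numpy 2.4.6, pandas 2.3.3 and matplotlib 3.10.9 served for tables and plots. Genes may be split over unigenes or merged with close copies in such an assembly, and subunit names here follow the authors' descriptions and KEGG orthologue labels. The median standard error for these unigenes was 0.08 on the log2 scale.

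The unigenes and gene lists were chosen with earlier results of these data known. Named were those past the threshold, all mitochondrially coded ones, in each nuclear group the 2 highest in TPM and the smallest p in each direction, the 3 largest differences in each direction, both among those with a mean of at least 50 counts, and in each list the 2 highest in TPM and the 2 smallest p past the threshold. Of the list genes so chosen, only some are printed, and the others are summarised by their list's counts and median. Alternatives were leaving out each library, a replicate block, DESeq2 size factors, scaling to insect-hit counts, DESeq2's Wald test, no filter, a filter of at least 50 counts in 3 libraries, and summing unigenes of a description. Replicate numbers did not pair the libraries, as the closing part shows. No set test was made.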

Additional observations from a re-analysis of the deposited data

Results flagged for a closer look

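The words and pathway that chose the unigenes also matched 255 unigenes whose best hit names no insect, 104 of them in the genus Mus and 67 in Homo. These rows stood outside every comparison above and are listed here because counts were found in them: they held 0.592% of all counts in the lowest library (male 2) and 0.682% in the highest (female 1). Of 188 tested, none passed edgeR's test, 2 had an unadjusted p under 0.05 and DESeq2 called 0. Their median log2 difference, female minus male, was 0.05. The source of these transcripts was not tested.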

How the results depend on the processing

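The count of 593 unigenes past edgeR's test ranged from 357 to 688 when any 1 library was left out; it was 358 without female 2 and 357 without male 2. The count of 2 oxidative phosphorylation unigenes ranged from 0 (without female 2 or without male 2) to 2, with 1 left without male 1, the pyrophosphatase. It was 7 by DESeq2's Wald test and 0 with only subunits of complexes I to V, a restriction chosen after seeing the data, and 2 under the other settings. The cause of these shifts was not tested. The median log2 difference of the set stayed below 0 under all settings run, between -0.09 and -0.04 when a library was left out (-0.04 without male 3) and at -0.06 when scaled to insect-hit counts; those scalings moved the median of all tested unigenes by no more than 0.02. With female 1 left out, cytochrome c passed the threshold (adjusted p = 0.043). Of 720 values of 60 named unigenes under 12 settings, 695 kept their direction and side of the threshold, 18 lost the threshold, 6 gained it, 1 moved and 0 reversed, and of 84 group medians 80 moved by less than the spread between replicates; the other 4 were of the V-type pump, all near 0. For the mitochondrial genome that spread, 0.352, includes female 1 itself, and its median went from -0.50 to -0.25 without that library.

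With the replicate number as a block, edgeR called 576 unigenes (338 higher in females, 238 lower), and 2 of the set: the pyrophosphatase, and ATP6 in place of the myb-like unigene. The numbers do not pair the libraries: deviations from the sex mean correlated at -0.02, -0.07 and -0.01 between libraries of the same number, and no female library correlated best with the male of its own number.

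With 3 libraries per sex and a median standard error of 0.08, single unigenes with differences near the median of the set could not be resolved. Intervals cover the spread between these libraries only.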
